A study of Mus musculus with 6 samples.

Results

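The genes described here are 10 genes that mark the resident macrophages of the gut wall: the complement C1q chains C1qa, C1qb and C1qc, the chemokines Ccl8 and Ccl9, the receptors Fcgr1, Csf1r, Adgre1 and Mrc1, and the lysosomal protein Cd68. Each was chosen by its name, but with earlier results of these data known. Counts of members beside shares of all genes are therefore descriptions and not independent evidence. Each was read from its probe set with the highest mean over the 6 arrays, and all 10 were found among 18193 measured genes. The study measured total RNA from the distal and the proximal colon of female C57BL/6J mice, an inbred strain, that had received no treatment, with 3 libraries labelled distal and 3 labelled proximal. The design text states that both regions came from 3 animals, the labels give neither an age nor the layers of the wall that were kept, and each library was hybridised to 1 array. Values are log2 expression as deposited by the authors, so a difference of 1 is a 2-fold difference. In RNA of whole tissue, fewer macrophages and less RNA per macrophage cannot be told apart.

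Regional genes of 2 libraries ran against the labels, so libraries are named by label throughout. Hoxb13, a homeobox gene of the hind body axis, had values of 13.78 and 13.29 in distal 1 and 2 but 6.65 in distal 3, against 13.39 in proximal 1 and 6.53 and 6.48 in proximal 2 and 3. Slc51a, a bile acid exporter subunit, measured 5.07, 5.94 and 12.05 in distal 1, 2 and 3, against 5.83, 12.47 and 12.39 in proximal 1, 2 and 3. Every result is therefore given for the 6 libraries as labelled and for 4 libraries, without distal 3 and proximal 1. Both were left out for their own profiles, so the p-values of the 4 libraries overstate the evidence and describe only distal 1 and 2 against proximal 2 and 3. The median over all genes lay between 9.23 and 9.36 on each array, and the lower quartile of all gene values was 6.54. The epithelial keratin Krt19 averaged 14.73 and the smooth muscle protein Tagln 14.22, on a scale that ran up to 15.07.

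Macrophages of the intestinal lamina propria and muscle layer are long-lived or are renewed from blood monocytes. They need signalling through the CSF1 receptor, take up bacteria and dying cells, and hold back inflammation. They bind IgG through Fc receptors, secrete C1q, which starts the classical complement pathway, and release chemokines that draw in other leukocytes. In the mouse gut, Fcgr1 (CD64) and Adgre1 are used to tell macrophages from dendritic cells.

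All 10 genes averaged less in distal than in proximal libraries, by 1.19-fold to 2.12-fold as labelled, where 53.7% of all genes had a difference below 0, but none passed the test in the 6 libraries. The test was limma's moderated test over all genes with Benjamini-Hochberg adjustment at 0.05, and as labelled it called 0 of 10 members, as it called 0% of all genes. At an unadjusted p of 0.05 there were 3 members, Fcgr1, C1qc and Adgre1, where 3.05% of all genes reached that level and 2.14% did so with lower values in distal. Leaving out 1 library moved this count to 7 without distal 3, where 3103 of 18193 genes reached that level, against 554 in the 6 libraries. The count was 1 without distal 1 or distal 2, where 286 and 569 of all genes did so. It was 2 without proximal 1 or proximal 3, where 1667 and 201 of all genes did so. A test with a pooled variance per gene and no moderation called 0 of 10. Without distal 3 and proximal 1, 7 of 10 members passed and were lower in distal libraries, where 11.5% of all genes did so and 19.2% passed in either direction. These 7 were Ccl8, C1qa, Ccl9, Fcgr1, Adgre1, Cd68 and C1qc, while Mrc1, C1qb and Csf1r did not pass. All 10 again had differences below 0 in the 4 libraries, where 56.4% of all genes did. The median difference of the 10 genes was -0.57 as labelled, against -0.02 for all genes, and -0.89 in the 4 libraries, against -0.04 for all genes. Fits on 3 of the 4 libraries had 1 residual degree of freedom and made few calls over all genes: without distal 1 only C1qa passed, and without distal 2, proximal 2 or proximal 3 none of the 10 did, when 8.98%, 2.23%, 0.907% and 0.803% of all genes passed. The differences of the 3 genes with the smallest adjusted p stayed between -1.88 and -1.54 for Ccl8, between -1.42 and -1.12 for Ccl9 and between -1.64 and -1.15 for C1qa in these fits.

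**Figure D1:**
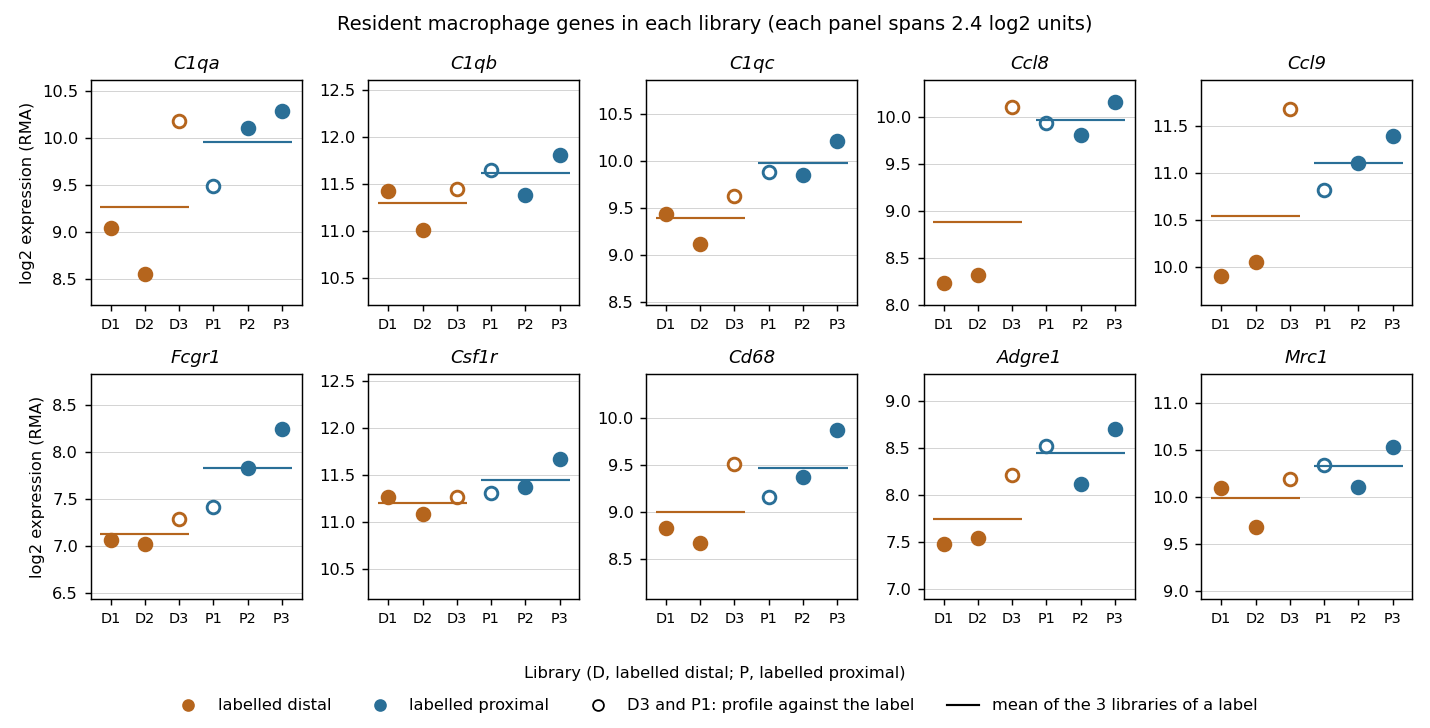
Log2 expression of the 10 genes in each library, with D for distal and P for proximal as labelled, lines at the mean of the 3 libraries of a label, and open circles for D3 and P1, whose profiles went against their labels. D1 and D2 are the lowest pair in 8 of the 10 panels, and P3 is the highest library in 9.

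The same few libraries were the highest and the lowest in most of the genes. The library labelled proximal 3 was the highest in 9 of 10 genes and distal 3 in the remaining gene, Ccl9, while distal 2 was the lowest in 7 and distal 1 in 3. The shares of all genes with these highest and lowest libraries were not counted, so these orders are not shown to be particular to the members. Proximal 3 also had the highest median over all genes, 9.36, and distal 1 and 2 the lowest, 9.23 and 9.27. Distal 1 and 2 were the lowest pair of the 6 libraries in 8 of 10 genes, where this order held in 20.2% of all genes. The groups as labelled did not overlap in 3 of 10 genes, all lower in distal, where 7.33% of all genes were separated in either direction and 4.6% with lower values in distal. The genes are not replicates of each other, since all were read from the same 6 arrays.

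C1qa, C1qb and C1qc encode the chains that assemble into C1q, and they lie next to each other on mouse chromosome 4. C1qa measured 9.04, 8.55 and 10.18 in distal 1, 2 and 3, against 9.49, 10.10 and 10.28 in proximal 1, 2 and 3. Distal 3 lay within the proximal range, so the groups overlapped, and distal 1 and 2 were below every other library. The means were 9.26 ± 0.84 in distal and 9.96 ± 0.41 in proximal libraries (SD, n = 3 each), a difference of -0.70 (SE 0.44, limma adjusted p = 0.824), which was -0.35 without distal 2 and -1.16 without distal 3. In the 4 libraries the difference was -1.40 (SE 0.19, limma adjusted p = 0.00947), or 2.63-fold lower in distal.

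C1qc measured 9.44, 9.12 and 9.63 in distal libraries, against 9.88, 9.85 and 10.21 in proximal libraries. All 3 distal values were below all 3 proximal values, with a difference of -0.58 (SE 0.17, limma adjusted p = 0.824) as labelled and of -0.75 (SE 0.18, limma adjusted p = 0.0427) in the 4 libraries. When the 4 arrays were quantile normalized or centred on their medians the difference was -0.66 (SE 0.18) in both cases, with limma adjusted p of 0.0614 and 0.0588, just above the threshold. C1qb measured 11.42, 11.01 and 11.44 in distal libraries, against 11.65, 11.38 and 11.80 in proximal libraries. Its groups overlapped, and the difference was -0.32 (SE 0.17) as labelled and -0.38 (SE 0.21, limma adjusted p = 0.266) in the 4 libraries. C1qb has 3 probe sets, and the choice among them decided its call. The names of the probe set used here and of another mark them as open to related transcripts, and the other differed by -0.32 (limma adjusted p = 0.355) in the 4 libraries. The probe set specific by its name measured 8.63, 8.54 and 8.90 in distal libraries, against 9.09, 9.19 and 9.52 in proximal libraries, with no overlap. It differed by -0.58 as labelled and by -0.77 (SE 0.15) in the 4 libraries, where limma's adjusted p over all probe sets was 0.0208, close to the difference of C1qc.

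The promoters of the neighbours C1qb and C1qc are shown because these genes stand next to each other and encode chains of the same complex. The windows run from 250 bases before to 50 bases after the annotated start, from RefSeq on GRCm38.p6, and 7 of the 10 genes had one. Capitals mark GAGGAA, the core of the site bound by PU.1, the transcription factor that macrophages depend on, or its reverse complement TTCCTC. The windows are chr4:136886151-136886450 for C1qb and chr4:136892865-136893164 for C1qc, both on the minus strand, written 5′ to 3′ along the gene.
C1qb: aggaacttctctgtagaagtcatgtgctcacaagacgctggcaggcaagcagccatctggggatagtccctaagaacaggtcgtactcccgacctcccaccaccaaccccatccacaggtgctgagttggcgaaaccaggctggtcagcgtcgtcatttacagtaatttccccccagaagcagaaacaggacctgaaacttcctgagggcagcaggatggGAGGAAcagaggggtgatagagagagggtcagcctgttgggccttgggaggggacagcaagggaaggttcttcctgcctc
C1qc: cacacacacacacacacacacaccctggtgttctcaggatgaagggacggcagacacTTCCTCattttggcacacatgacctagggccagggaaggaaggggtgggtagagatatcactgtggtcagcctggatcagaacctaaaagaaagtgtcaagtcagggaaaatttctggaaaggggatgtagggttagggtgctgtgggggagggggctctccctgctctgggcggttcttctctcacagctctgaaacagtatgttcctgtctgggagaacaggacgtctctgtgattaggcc
The core stood from -30 to -25 of the start in C1qb and from -193 to -188, on the other strand, in C1qc. Searched on both strands, it was present in 6 of the 7 windows, Ccl9 being without it, and in 28.3% of 32851 such windows. TTGCNNAA, a core bound by C/EBP factors, was in 1 of the 7, Cd68, and in 10.8% of all windows. These matches describe letters in a window and are not binding sites shown in these samples.

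Ccl8 and Ccl9 encode CC chemokines. In mice Ccl8 acts on the receptor Ccr8 and is made by CD169-positive macrophages of the colon, and Ccl9 acts on Ccr1 and is also made by epithelium over lymphoid follicles. Ccl8 measured 8.23, 8.32 and 10.11 in distal 1, 2 and 3, against 9.94, 9.81 and 10.16 in proximal 1, 2 and 3. Distal 1 and 2 were low and the other 4 libraries were within 0.35 of each other, so the groups overlapped through distal 3 alone. The difference was -1.08 (SE 0.50, limma adjusted p = 0.824) as labelled. In the 4 libraries it was -1.71 (SE 0.15, limma adjusted p = 0.00291), or 3.27-fold lower in distal, the largest of the 10 genes. Proximal 1, which resembled distal libraries by Hoxb13, was 1.66 above the mean of distal 1 and 2 for Ccl8 and 0.04 below the mean of proximal 2 and 3.

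Ccl9 measured 9.90, 10.05 and 11.68 in distal 1, 2 and 3, against 10.82, 11.10 and 11.39 in proximal 1, 2 and 3. The highest value of all was that of distal 3. The difference was -0.56 (SE 0.48, limma adjusted p = 0.824) as labelled, which was -0.24 without distal 1, -0.31 without distal 2 and -1.13 without distal 3. It was -1.27 (SE 0.14, limma adjusted p = 0.00555) in the 4 libraries. Its second probe set ran from 6.36 in distal 1 to 8.26 in distal 3, with a difference of -1.55 (SE 0.16) in the 4 libraries. The windows of the 2 chemokine promoters are shown as those of the genes with the largest shortfall in distal 1 and 2 beside C1qa, Ccl8 at chr11:82114935-82115234 on the plus strand and Ccl9 at chr11:83578587-83578886 on the minus strand, with the same motif in capitals.
Ccl8: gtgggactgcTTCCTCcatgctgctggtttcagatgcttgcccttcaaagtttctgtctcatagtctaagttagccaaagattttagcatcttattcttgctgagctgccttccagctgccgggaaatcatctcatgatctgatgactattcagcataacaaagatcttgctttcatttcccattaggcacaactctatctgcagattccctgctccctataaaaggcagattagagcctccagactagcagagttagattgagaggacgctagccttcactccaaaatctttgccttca
Ccl9: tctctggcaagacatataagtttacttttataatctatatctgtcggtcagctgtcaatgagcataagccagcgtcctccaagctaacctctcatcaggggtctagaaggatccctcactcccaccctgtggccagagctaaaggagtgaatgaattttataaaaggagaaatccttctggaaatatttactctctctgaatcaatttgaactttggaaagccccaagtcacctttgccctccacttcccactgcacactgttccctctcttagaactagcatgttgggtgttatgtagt

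Fcgr1 encodes the high-affinity receptor for IgG. It measured 7.07, 7.02 and 7.29 in distal libraries, against 7.42, 7.83 and 8.25 in proximal libraries. The groups did not overlap, and distal 3 and proximal 1 lay between the other distal and the other proximal libraries. The difference was -0.71 (SE 0.22, limma adjusted p = 0.824) as labelled and -1.0 (SE 0.16, limma adjusted p = 0.0164) in the 4 libraries. A second, dimmer probe set, with values from 6.32 to 6.90, differed by -0.10 as labelled and by -0.41 (limma adjusted p = 0.0955) in the 4 libraries.

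Csf1r encodes the receptor for the growth factors Csf1 and Il34. It measured 11.26, 11.08 and 11.26 in distal libraries, against 11.31, 11.37 and 11.67 in proximal libraries. The groups did not overlap, but the gap was 0.05, and the difference of -0.25 (SE 0.13) as labelled and of -0.35 (SE 0.15, limma adjusted p = 0.164) in the 4 libraries was the smallest of the 10 genes. Its other probe sets differed by -0.54 (limma adjusted p = 0.0649) and -0.70 (limma adjusted p = 0.0291) in the 4 libraries, so its call also depends on the probe set.

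Adgre1 encodes an adhesion receptor of macrophages and eosinophils in the mouse. It measured 7.47, 7.54 and 8.21 in distal libraries, against 8.52, 8.11 and 8.70 in proximal libraries. Distal 3 exceeded proximal 2, so the groups overlapped, and the difference was -0.70 (SE 0.25, limma adjusted p = 0.824) as labelled and -0.90 (SE 0.21, limma adjusted p = 0.0396) in the 4 libraries. Cd68, a glycoprotein of lysosomes and endosomes, measured 8.83, 8.67 and 9.52 in distal libraries, against 9.16, 9.38 and 9.88 in proximal libraries. Distal 3 was above proximal 1 and 2, so the groups overlapped. Its difference was -0.47 (SE 0.28, limma adjusted p = 0.824) as labelled and -0.88 (SE 0.19, limma adjusted p = 0.0332) in the 4 libraries.

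Mrc1 encodes the mannose receptor CD206, which lymphatic endothelium also carries. It measured 10.10, 9.69 and 10.20 in distal libraries, against 10.34, 10.11 and 10.54 in proximal libraries. Distal 3 was above proximal 2, so the groups overlapped. The difference was -0.33 (SE 0.18, limma adjusted p = 0.824) as labelled and -0.43 (SE 0.21, limma adjusted p = 0.213) in the 4 libraries.

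**Figure D2:**
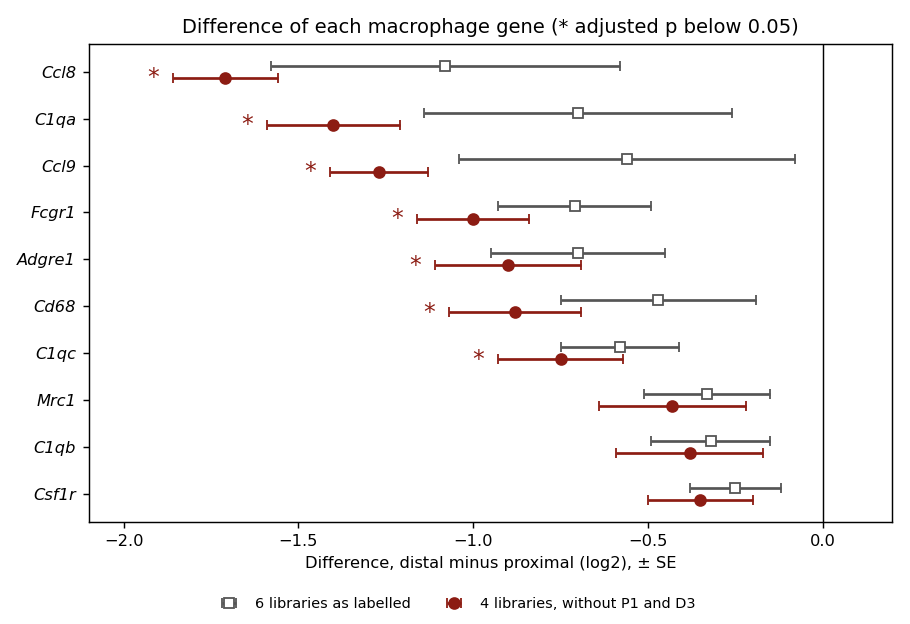
Difference of each gene on the log2 scale, distal minus proximal, with its standard error, for the 6 libraries as labelled (open squares) and for the 4 libraries without P1 and D3 (filled circles, with a star where the limma adjusted p was below 0.05). All differences lie below 0, from -1.71 for Ccl8 to -0.35 for Csf1r in the 4 libraries.

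The libraries labelled distal 3 and proximal 1 did not follow the Hoxb13 pattern equally, in these genes as over all genes. Distal 3 was nearer the proximal pair than the distal pair in 7 of 10 genes, where 70.9% of all genes and 90.1% of the genes called in the 4 libraries showed this. Proximal 1 was nearer the distal pair in 4 of 10 genes, C1qa, Fcgr1, Csf1r and Cd68, where 57.2% of all genes and 75.6% of the called genes did. In Ccl8, Adgre1, C1qb and Mrc1 proximal 1 differed from the mean of proximal 2 and 3 by at most 0.12. Proximal 1 was above both distal 1 and distal 2 in all 10 genes, and distal 3 was above both in 9. The shares of all genes with these 2 orders were not counted. No test was made of these placements.

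**Figure D3:**
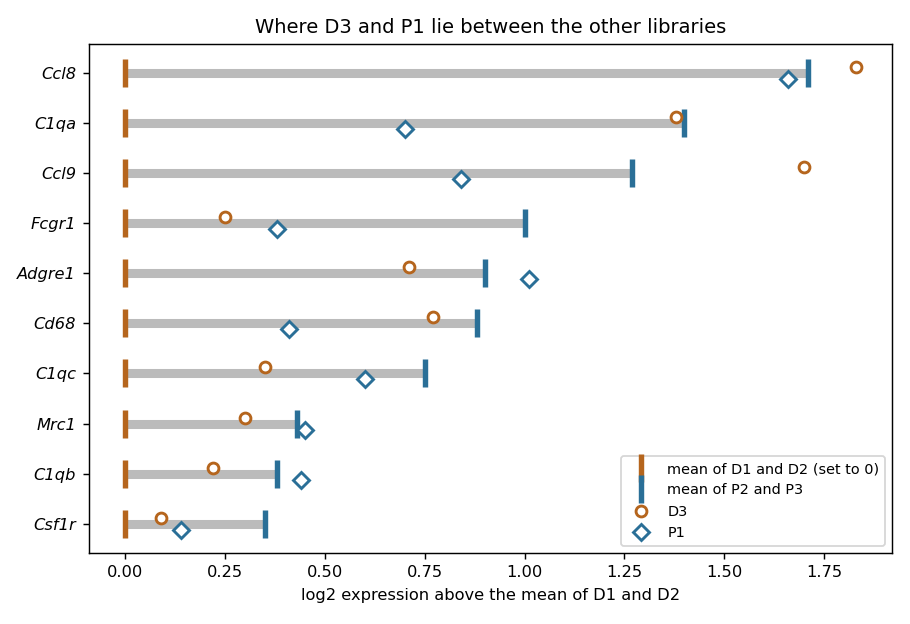
Position of the libraries labelled D3 (circles) and P1 (diamonds) for each gene, in log2 units above the mean of D1 and D2, with bars that reach to the mean of P2 and P3. D3 lies beyond the mean of P2 and P3 for Ccl8 and Ccl9, but above both of these libraries for Ccl9 alone. It lies near the distal pair for Fcgr1 and Csf1r. P1 lies beyond the mean of P2 and P3 for Adgre1, C1qb and Mrc1, by at most 0.12, and between these libraries in each.

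Genes that act with these members were read from lists, with the same test. As labelled 0 genes of any list passed, and the values that follow are of the 4 libraries, where 11.5% of all genes were lower and 7.71% higher in distal libraries. Of 8 measured genes of Fc receptors and their signalling chain 3 were lower and 0 higher, with a median difference of -0.64. Fcgr4, a receptor for IgG2, differed by -1.30 (SE 0.17, limma adjusted p = 0.00784), Fcer1g, the signalling chain that Fcgr1 needs, by -0.84 (SE 0.15, limma adjusted p = 0.0203) and Fcgr3 by -0.77 (SE 0.17, limma adjusted p = 0.0333). Fcer1g measured 9.12, 9.21 and 9.69 in distal libraries, against 9.82, 9.83 and 10.18 in proximal libraries, with no overlap as labelled. The adaptor Tyrobp had a difference of -0.53 and did not pass (limma adjusted p = 0.0687).

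Of 15 monocyte chemokines and receptors 7 were lower and 0 higher in distal libraries, with a median difference of -0.30. Ccl12, a neighbour of Ccl8 on chromosome 11 that attracts monocytes through Ccr2, measured 6.40, 6.85 and 7.58 in distal libraries, against 7.91, 8.34 and 8.38 in proximal libraries. Its groups did not overlap, and it differed by -1.27 (SE 0.31, limma adjusted p = 0.824) as labelled and by -1.74 (SE 0.17, limma adjusted p = 0.00392) in the 4 libraries. The Ccl12 value in distal 1, 6.40, was below the lower quartile of all values, 6.54. Ccr1, the receptor of Ccl9, differed by -2.20 (SE 0.25, limma adjusted p = 0.00555), with distal 1 and 2 at 6.11 and 5.50, below the lower quartile of all values, a range in which background can mask the true level. Ccl5, a neighbour of Ccl9 that T cells also make, differed by -2.48 (SE 0.33, limma adjusted p = 0.00892). Ccl3 differed by -1.50 (SE 0.17, limma adjusted p = 0.00589) and was at 4.83 and 5.08 in distal 1 and 2, with the same limit. Only its value in proximal 2, 6.65, was above the lower quartile, so the size of its difference is uncertain.

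Of 30 other macrophage genes 8 were lower and 0 higher in distal libraries, with a median difference of -0.27. They include Apoe, a lipid carrier, which measured 10.72, 10.63 and 10.84 in distal libraries, against 11.15, 11.36 and 11.49 in proximal libraries. Apoe did not overlap between labels and differed by -0.75 (SE 0.11, limma adjusted p = 0.0125). The lysosomal protease Lgmn differed by -1.16 (SE 0.16, limma adjusted p = 0.00947) and the membrane protein Ms4a7 by -0.87 (SE 0.15, limma adjusted p = 0.0183). Adgre4, a relative of Adgre1, differed by -1.15 (SE 0.14, limma adjusted p = 0.00769), but 5 of its 6 values, which ran from 5.24 to 6.60, were below the lower quartile, so the size of its difference is uncertain. The remaining 22 of the 30 genes did not pass. Counted by sign, 22 of the 30, including the 8 that passed, had differences below 0 in the 4 libraries. Those above 0 included Gas6 (0.42), Cd14 (0.30), Siglec1 (0.23) and Selenop (0.06), the brightest gene of the list.

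A list of 11 measured genes held ligands of Csf1r, the receptor genes Csf2ra and Csf2rb, and macrophage transcription factors. Of these 11 genes 1 was lower and 1 higher in distal libraries, near the shares of all genes. Il34, a ligand of Csf1r, measured 7.46, 7.70 and 6.54 in distal 1, 2 and 3, against 7.47, 6.58 and 6.36 in proximal 1, 2 and 3, and was higher by 1.11 (SE 0.14, limma adjusted p = 0.00805) in the 4 libraries. In Il34 the libraries split as in Hoxb13, with proximal 1 beside distal 1 and distal 3 beside proximal 2. Its values in distal 3, proximal 2 and proximal 3 were at or near the lower quartile of all values, 6.54, so the size of its difference is uncertain. Irf8, a transcription factor of monocytes and their descendants, differed by -0.62 (SE 0.12, limma adjusted p = 0.0254), and Maf and Mitf had differences of -0.80 and 0.42 and did not pass. Of 16 complement genes 2 were lower and 2 higher, again near the shares of all genes. C2, the component cleaved after C1q has bound, differed by -1.32 (SE 0.22, limma adjusted p = 0.0166) and the receptor C3ar1 by -0.68 (SE 0.12, limma adjusted p = 0.0221), while properdin, Cfp, was higher by 1.06 (SE 0.14, limma adjusted p = 0.00887) and the inhibitor Cd55 by 0.82 (SE 0.11, limma adjusted p = 0.0088).

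**Figure D4:**
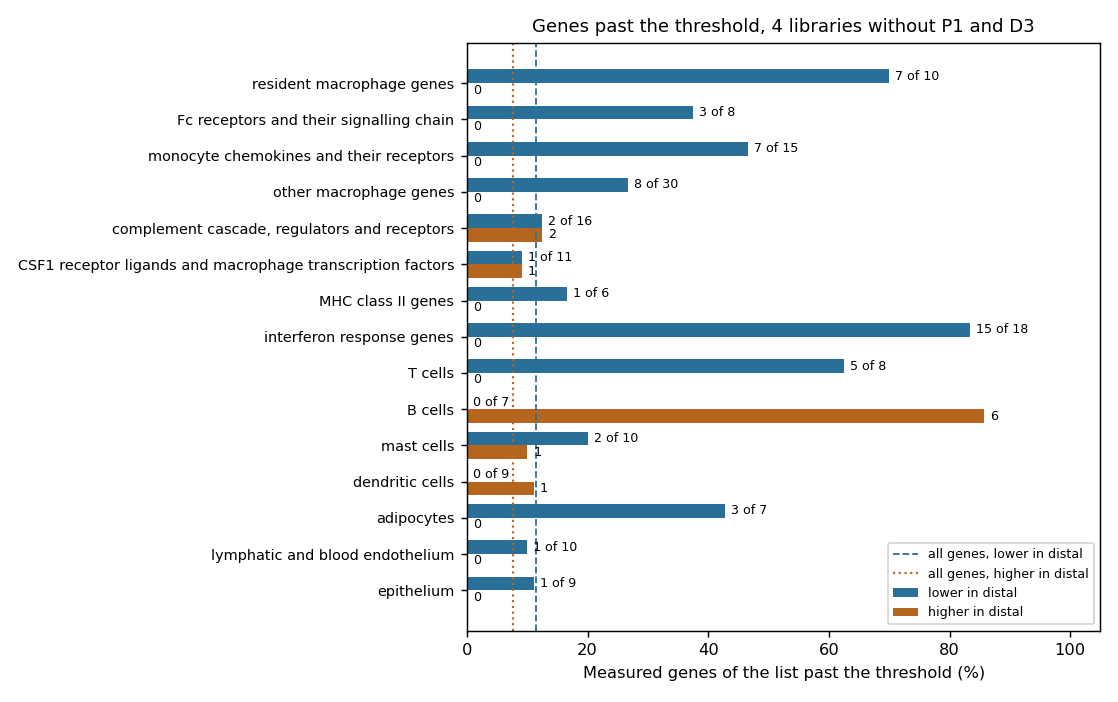
Share of the measured genes of each list that passed the limma threshold in the 4 libraries without P1 and D3, lower in distal (upper bars) and higher in distal (lower bars), with counts beside the bars and vertical lines for all genes. The macrophage genes stand at 7 of 10 and the interferon response genes at 15 of 18 lower in distal, and the B cell genes at 6 of 7 higher.

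Interferon response genes and markers of T cells and adipocytes had lower summed levels in distal 1 and 2 than in proximal 2 and 3, as these genes did, markers of B cells and smooth muscle had higher ones, and their part in the differences was not tested. Of 18 interferon response genes 15 were lower in distal libraries in the 4 libraries, with a median difference of -1.48. Relative to each gene's own mean, their median was -0.71, -0.42 and -0.48 in distal 1, 2 and 3, against -0.22, 0.75 and 1.03 in proximal 1, 2 and 3, and that of the 10 macrophage genes was -0.41, -0.56 and 0.08, against 0.09, 0.15 and 0.59. Distal 3 and proximal 1 were thus below the mean for the interferon genes and slightly above it for the macrophage genes. Ifit1, an antiviral protein induced by interferon, measured 8.72, 9.67 and 10.87 in distal libraries, against 9.76, 12.90 and 13.22 in proximal libraries, and differed by -3.86 (SE 0.32, limma adjusted p = 0.00252) in the 4 libraries. Ifit2 (-3.21), Ifit3 (-2.52) and the transcription factor Irf7 (-2.44) also passed. Of 6 MHC class II genes H2-DMa passed (-0.89, SE 0.11, limma adjusted p = 0.00722), and H2-Ab1, H2-Aa and H2-Eb1 had differences of -0.34, -0.37 and -0.25 and did not pass.

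Of 8 T cell markers 5 were lower in distal libraries in the 4 libraries and 0 higher, and their summed linear level was between 1900 and 4080 in distal and between 2350 and 5140 in proximal libraries. Of 7 B cell markers 6 were higher and 0 lower, with a summed level of 2680, 2720 and 553 in distal 1, 2 and 3, against 2120, 856 and 851 in proximal 1, 2 and 3. Of 9 smooth muscle markers 0 were lower and 1 higher, and as labelled all 9 had differences above 0, with a summed level of 93800, 98200 and 96700 in distal 1, 2 and 3, against 92300, 81200 and 72900 in proximal 1, 2 and 3. Of 7 adipocyte markers 3 were lower, with a sum between 8240 and 17900 in distal and between 15100 and 24000 in proximal libraries. The sum over the 10 macrophage genes was 9530, 8090 and 13900 in distal libraries, against 12600, 12700 and 16200 in proximal libraries. Of 10 markers of lymphatic and blood endothelium, the other source of Mrc1, 1 was lower, and their sum lay between 7070 and 8270 in distal and between 7930 and 8990 in proximal libraries. Of 9 dendritic cell markers 0 were lower and 1 higher. Their sum was 2180, 2280 and 2720 in distal 1, 2 and 3, against 2410, 2510 and 2750 in proximal 1, 2 and 3. Of 9 epithelial markers 1 was lower and 0 higher. Their sum was 161000, 160000 and 176000 in distal libraries, against 155000, 174000 and 176000 in proximal libraries. Both sums were also lower in distal 1 and 2 than in proximal 2 and 3. The array has no true zero, so no marker can be called absent.

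**Figure D5:**
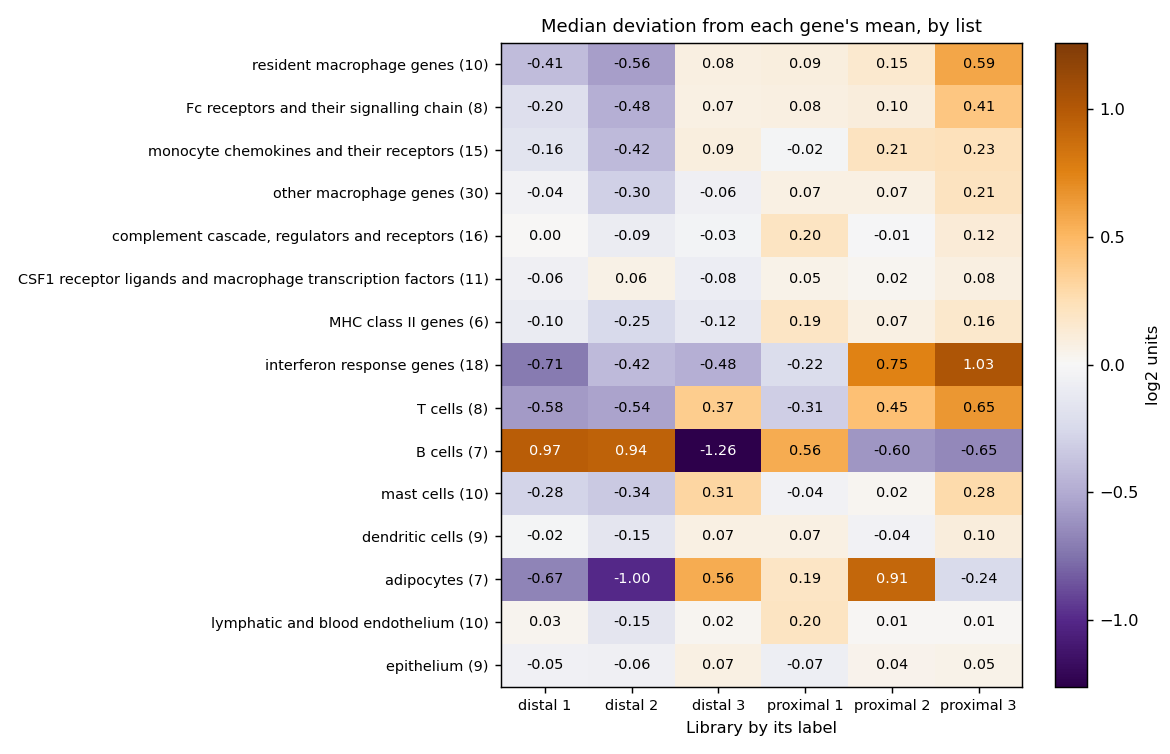
Median over each list of the deviation of a gene from its mean over the 6 libraries, in log2 units, with the number of measured genes in brackets. The macrophage genes and the Fc receptors are lowest in distal 1 and 2 and highest in proximal 3, the interferon genes are high in proximal 2 and 3 alone, and the B cell genes are high in distal 1, distal 2 and proximal 1.

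The genes whose values over the 6 libraries lay nearest to the mean profile of the 10 members were searched among 12950 genes, by the root mean square difference of centred values. The nearest was Fcgr3, the low-affinity IgG receptor, at 0.072, followed by Scand1 (0.084), Lsm10 (0.095), Mtln (0.097) and Cox16 (0.098). Nearest to the mean profile of the 3 C1q chains were Zfp386 (0.072), Sh3bgrl2 (0.072), Uevld (0.073), Lsm10 (0.08) and Ifi27l2a (0.083). With 6 libraries many genes share such an order, and a small distance describes only these libraries.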

How the data were processed

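RNA was extracted with Trizol, per the labels' protocols, and was amplified with NuGEN Ovation kits and labelled with biotin. The deposited values are log2 expression per probe set, made by the authors with RMA in Partek 6.5, per the submitters' processing notes. Since RMA evens out the distributions of the arrays, it would hide a change common to most genes. No detection calls or scanner files were used here.

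Of 45101 probe sets, 34945 have 1 gene, 932 several and 9160 none listed, and 64 are controls. Gene identifiers gave current symbols for 34741 with a RefSeq table of GRCm38.p6, and 204 kept the array's. Each gene was read from its probe set with the highest mean, which gave 18193 genes. Distal minus proximal differences were fitted with limma 3.58.1 in R 4.3.3 (lmFit, eBayes, two-sided), without a block for the number, and tested on simulated data. Nothing says which numbers share an animal, so p-values reflect only how far these libraries scatter, which may be technical.

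The members, lists and alternatives were chosen with earlier results of these data known. All members are named, and, from each pathway list, the 4 genes with the smallest p in the 4 libraries, plus the 5 nearest genes of each profile. Sums are of 2 to the power of the log2 values.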

Additional observations from a re-analysis of the deposited data

How the results depend on the processing

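In the 6 libraries as labelled, limma called 0 of 18193 genes and 0 of 10 members, and with any 1 library left out the counts were still 0 and 0. Without distal 3 and proximal 1 the counts were 3494 genes and 7 members, and with array weights, which were lowest for these 2 libraries (0.291 and 0.322), 5579 genes and 6 members. In the 4 libraries, leaving out 1 of them left between 146 and 1633 genes and between 0 and 1 members, with the lone library of a label taken to scatter as the other 2 do. At an adjusted p of 0.01 they gave 1112 genes and 3 members, and quantile normalization and median centring gave 3455 and 3440 genes and 6 members each. The sign of every member's difference was below 0 in each of these fits, and in the single probe sets, with a range over genes of -1.88 to -0.10. With the replicate number as a block, 0 genes and 0 members passed, and 1065 genes and 7 members had an unadjusted p under 0.05, against 554 and 3 without it. Deviations of equal-numbered libraries from the means of their labels correlated at 0.677, -0.448 and 0.678 over genes. Distal 3 and proximal 1, which ran against their labels, shape these deviations, and correlated with each other at -0.767. The correlations therefore cannot show whether equal numbers share an animal. The number of arrays limits precision, and dim probe sets such as the second of Fcgr1 lie near the lower quartile of all values, where signal over background is small. The filter on low means left 7 of 10 members to test, and none passed.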

Other observations

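Mast cells and neutrophils, which share part of the Fc receptor set, were read in the same way. In the 4 libraries 8 of 10 mast cell markers had differences below 0, with a median of -0.42, where 56.4% of all genes did. Past the threshold, 2 mast cell markers were lower and 1 higher in distal libraries. Their summed level lay between 1990 and 2990 in distal and between 2270 and 3070 in proximal libraries. Of 9 neutrophil markers 4 had differences below 0, with a median of 0.10. Past the threshold, 0 neutrophil markers were lower and 1 higher, and 5 were under the lower quartile in every library. Of 8 fibroblast markers 0 passed in either direction, with a summed level between 31000 and 39500 in distal and between 31500 and 36200 in proximal libraries. Pancreatic acinar genes had a summed level of 50400, 11500 and 4630 in distal 1, 2 and 3, against 49200, 4650 and 4600 in proximal 1, 2 and 3. Distal 1 and 2, the lowest in most macrophage genes, were thus both above proximal 2 and 3 in these sums, which weigh bright genes such as Cela1 most. Relative to each gene's own mean, the median of the acinar genes was 4.36, -2.36 and -2.15 in distal libraries. It was 4.47, -1.89 and -2.33 in proximal libraries, so distal 2 was the lowest library by this measure. The part of the acinar genes in the differences was not tested.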
